A study of Mus musculus with 16 samples.

Results

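The Zfp genes of the mouse are a large family of zinc finger genes, and their RNAs were selected here as the protein-coding RNAs (pcRNAs) whose name is Zfp followed by a number and, in some cases, a letter. The rule found 170 names among the 10736 pcRNA names, and among 12080 RNA names in all, in the deposited lists of significant RNA–chromatin interactions. The data came from PGK12.1, a line of mouse embryonic stem cells (mESCs) grown with serum and leukemia inhibitory factor. In each preparation about 20000000 cells were crosslinked in 1% formaldehyde, RNA was ligated through a bridge adaptor to nearby DNA in nuclei, and the chimeras were sequenced to give pairs, each of 1 RNA tag with 1 DNA tag. Chimeras taken without antibody gave the Input, and chimeras pulled down with an antibody against the histone mark H3K27me3 gave the H3K27me3-RADIP. Both groups held the same untreated cells and, by the labels, differed in the antibody step alone, with 8 libraries each, which the authors merged into 1 list per group. The study describes fewer biological replicates than libraries, so some libraries may share a replicate.

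A Zfp protein usually binds DNA through an array of C2H2 zinc fingers, each a short loop of amino acids held by a zinc ion. Many Zfp proteins also carry a KRAB domain, which recruits the corepressor Trim28 and, through it, the H3K9 methyltransferase Setdb1 to silence retroelements and imprinted loci in embryonic stem cells. KRAB zinc finger genes multiplied by tandem duplication and often lie side by side in clusters of similar sequence, whereas Zfp genes with developmental roles tend to stand alone. H3K27me3 is a different repressive mark, deposited by Polycomb repressive complex 2, and RADIP reports RNA found close to chromatin that carries it.

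The 2 lists held 1305107 pairs in the Input and 1415135 pairs in the H3K27me3-RADIP, and the authors kept each combination of an RNA and a 25-kb bin of DNA with a q-value of at most 0.1. The smallest number of pairs listed for a combination was 7. An RNA with few pairs, or with its pairs spread thinly over distant bins, is therefore listed in part or not at all. There was no replicate error to set against any difference, because each group was 1 merged list. All intervals below are 95% intervals for counting error only, no p-value is given, and each difference compares those 2 merged lists rather than the conditions. Of 12 embryonic stem cell marker genes 7 were listed, among them Esrrb with 2388 and 2500 pairs, while the defining markers Pou5f1 and Nanog were not, so listing says little of cell identity where 49.0% of other annotated protein-coding genes were listed. Of markers of other cells, 2 of 5 endoderm genes, 2 of 5 feeder fibroblast genes and 1 of 4 neural genes were listed.

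Zfp RNAs made up a small and nearly equal share of pcRNA pairs in both lists. In the Input, 147 Zfp names gave 17633 pairs, or 1.40% of pcRNA pairs (Wilson interval 1.38 to 1.42). In the H3K27me3-RADIP, 138 names gave 18468 pairs, or 1.36% (1.34 to 1.38). Pairs repeated at the same RNA and DNA positions made up 6.74% of the Zfp pairs in the Input and 9.79% in the H3K27me3-RADIP, close to the shares over all pairs of 6.79% and 9.74%. The files carry no molecular identifiers, so repeated pairs were kept as listed.

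Most Zfp RNAs had few pairs, and a few supplied most pairs. The median total over both lists was 29 pairs for a Zfp RNA and 50 for another pcRNA. By gene length the medians were 19 and 21 below 25 kb and 38.5 and 47 at 25 to 50 kb, but 151 and 106 at 50 to 100 kb 750 and 207 at 100 to 200 kb and 418 and 317 above 200 kb, so from 50 kb the Zfp median was the higher one. In the Input, 52.4% of the Zfp names reached a single 25-kb bin, against 34.6% of the other pcRNAs, and in the H3K27me3-RADIP the shares were 48.6% and 35.3%. The 5 RNAs with the most pairs held 51.4% of all Zfp pairs in the Input and 54.7% in the H3K27me3-RADIP, so any sum over the family was mainly a sum over these 5.

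These 5 came from long genes that stand alone. Zfp704 (chr3:9427020-9610085, minus strand, mm10) gave 2668 pairs in the Input and 2908 in the H3K27me3-RADIP. Zfp423 (chr8:87661810-87959595, minus strand), a regulator of adipocyte commitment and cerebellar development, gave 1802 and 2508. Zfp407 on chromosome 18 gave 1928 and 2063. Zfp462 (chr4:54945048-55083563, plus strand), which is needed for pluripotency and neural development, gave 1566 and 1528, and Zfp532 on chromosome 18 gave 1103 and 1098. Of the 5, Zfp423 had the largest ratio of H3K27me3-RADIP to Input pairs, at log2 0.44 (exact interval 0.36 to 0.53), which stayed under the limit of 0.5 used for a call.

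Per kilobase of annotated gene the order was different. Zfp655, a gene of 15.6 kb, was the densest in the Input with 16.6 pairs per kb, followed by Zfp704 with 14.6, Zfp710 with 12.04 and Zfp462 with 11.3. In the H3K27me3-RADIP the densest were Zfp704 with 15.9 pairs per kb, Zfp710 with 15.3, Zfp655 with 13.3 and Zfp462 with 11.03. Zfp42, the pluripotency marker known as Rex1 and encoded by a gene of 11.9 kb, ranked 5 in the Input with 10.9 pairs per kb and 7 in the H3K27me3-RADIP with 8.22. The median listed Zfp RNA had 0.939 and 0.835 pairs per kb, so these few genes stood far above the middle of the family in both lists. Zfp407, whose gene spans 462 kb, ranked 15 in both lists.

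The comparison of the 2 lists asks which Zfp RNAs were found more often near H3K27me3 chromatin than in the Input. Of the 170 names, 115 were in both lists, 32 in the Input only and 23 in the H3K27me3-RADIP only. Names in the Input only made up 18.8% of the Zfp RNAs and 10.5% of all pcRNAs, and names in the H3K27me3-RADIP only made up 13.5% of both. All the Zfp RNAs in 1 list had few pairs, with 7 to 17 (median 9.5) for the Input only and 7 to 28 (median 8) for the H3K27me3-RADIP only. Those with the most pairs in the Input only were Zfp275 with 17, Zfp24 with 15 and Zfp408 with 14, a number that Zfp941 shared. Those in the H3K27me3-RADIP only were Zfp366 with 28, Zfp653 with 15 and Zfp628 with 13. Above 20 pairs in all, 102 of 103 Zfp RNAs were in both lists, the exception being Zfp366, so absence from a list lay close to the minimum of 7 pairs.

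The bins that an RNA reached were compared between the lists. The 115 shared names reached 785 bins in the Input and 830 in the H3K27me3-RADIP, and 628 combinations of an RNA and a bin were in both. That was 80.0% of the Input bins and 75.7% of the H3K27me3-RADIP bins, against 78.4% and 68.7% for the 8043 other pcRNAs in both lists.

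Pair numbers were compared for the 104 Zfp RNAs in both lists with at least 20 pairs together, which leaves out the other 11 names found in both. An RNA was called higher or lower where its scaled log2 ratio, H3K27me3-RADIP over Input, was past 0.5 in size and its exact interval lay on 1 side of 0. By this rule 17 Zfp RNAs (16.3%) were called higher and 15 (14.4%) lower, while 72 were not called. With pairs of a q-value of at most 0.01 alone the counts were 13 higher and 23 lower, and with repeated positions counted once 15 and 17, so which direction had more calls depended on such settings. Over all 7660 pcRNAs compared, 13.6% were called higher and 14.9% lower. The median log2 ratio was -0.05 for the Zfp RNAs and 0.00 for the other pcRNAs, so the family as a whole stood near the middle of the pcRNAs in both counts and median. In such bulk libraries fewer cells with an RNA and less of it per cell cannot be told apart.

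**Figure D1:**
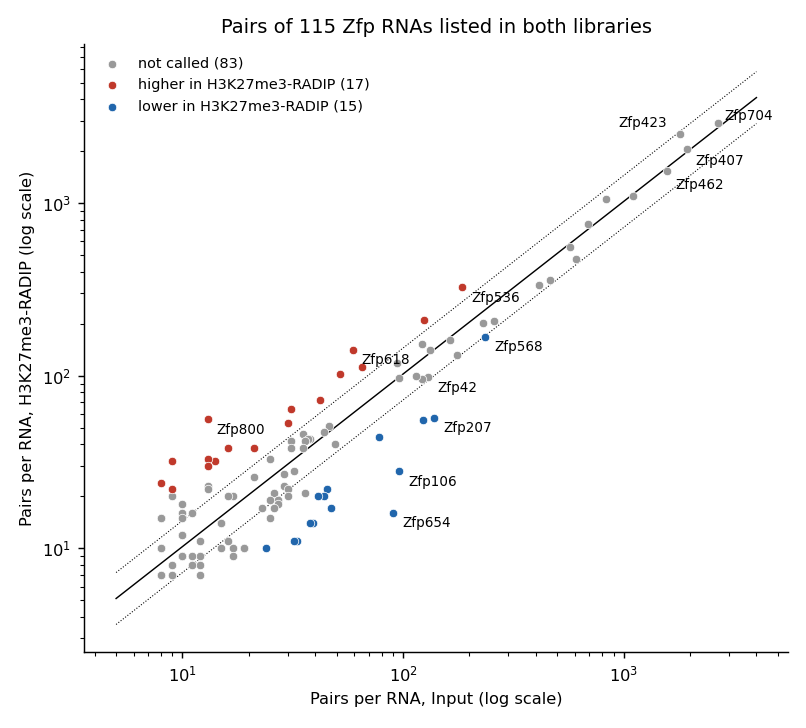
Pairs of each of the 115 Zfp RNAs listed in both libraries, with the Input on the x axis and the H3K27me3-RADIP on the y axis, both on log scales. Each point is 1 RNA, coloured by call, and the RNAs with the most pairs lie close to the diagonal while the 17 called higher and 15 called lower lie further from it, mostly under 200 pairs.

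More pairs bring more listed bins, and each listed bin brings at least 7 pairs at once, so bins are given here only to describe the called RNAs. The intervals of the ratios treat pairs as single counts and do not cover whole bins entering or leaving a list. Zfp800 had the largest ratio, with 13 pairs in 1 bin in the Input and 56 pairs in 5 bins in the H3K27me3-RADIP, a log2 ratio of 2.07 (1.19 to 3.07), and none of these bins was in both lists. Zfp618, which encodes a partner of the ubiquitin ligase Uhrf2, went from 59 to 141 pairs and from 5 to 9 bins (log2 ratio 1.22, 0.78 to 1.69). Zfp384 went from 31 to 64 pairs and Zfp507 from 52 to 102. In all, 16 of the 17 (94.1%) reached more bins in the H3K27me3-RADIP, as did 93.4% of the other pcRNAs called higher. A longer median distance there was seen in 14 of the 17 (82.4%) and in 76.1% of those others. Zfp536, a repressor of neuronal differentiation, had the most pairs among the 17, with 185 in the Input and 326 in the H3K27me3-RADIP (0.79, 0.52 to 1.05).

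Among the RNAs called lower, Zfp654 had 90 pairs in 5 bins in the Input and 16 pairs in 1 bin in the H3K27me3-RADIP, a log2 ratio of -2.52 (-3.39 to -1.75). Zfp106, an RNA-binding protein gene, went from 96 to 28 pairs and from 6 to 2 bins (-1.81, -2.47 to -1.19). Zfp207, whose product BuGZ acts in spindle assembly, went from 138 to 57 pairs and from 4 to 2 bins (-1.31, -1.78 to -0.85). Fewer bins were listed in the H3K27me3-RADIP for 14 of the 15 (93.3%) and for 80.5% of the other pcRNAs called lower. A longer median distance there was seen in 5 of the 15 (33.3%) and in 55.6% of those others. Others of the lower group were Zfp410, a regulator of the NuRD subunit gene Chd4, with 32 and 11 pairs, Zfp317 with 47 and 17, and Zfp777 with 38 and 14.

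By pair number, 6 of the 42 Zfp RNAs with 20 to 49 pairs in all were called higher and 3 lower. Among the 37 Zfp RNAs with 50 to 199 pairs in all, 8 were called higher and 11 lower, whereas among the 25 with 200 or more, 3 were called higher and 1 lower. Over other pcRNAs 10.2% and 10.4% were called from 20 to 49 pairs, 17.5% and 20.3% from 50 to 199 and 11.9% and 12.3% from 200, so calls were most frequent in the middle range for both sets. The 3 were Zfp536, Zfp516 (124 and 210 pairs) and Zfp618, and the 1 was Zfp568 (236 and 168 pairs).

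The promoters of called RNAs are shown because Polycomb complexes in embryonic stem cells are known to occupy CpG-rich promoters. RefSeq promoter sequences of 300 bases, from 250 before to 50 after the start, were found by symbol for 134 of the 170 genes. Printed are those of the highest and lowest ratios for which a sequence was held, in the order Zfp800 (chr6:28397956-28398255, minus strand) and Zfp523 (chr17:28176946-28177245, plus strand) from the higher group, then Zfp106 (chr2:120563810-120564109, minus strand) and Zfp518a (chr19:40894455-40894754, plus strand) from the lower group. Coordinates are of GRCm38.p6, each sequence reads 5′ to 3′ on the gene's strand, and capitals mark CG dinucleotides.
Zfp800: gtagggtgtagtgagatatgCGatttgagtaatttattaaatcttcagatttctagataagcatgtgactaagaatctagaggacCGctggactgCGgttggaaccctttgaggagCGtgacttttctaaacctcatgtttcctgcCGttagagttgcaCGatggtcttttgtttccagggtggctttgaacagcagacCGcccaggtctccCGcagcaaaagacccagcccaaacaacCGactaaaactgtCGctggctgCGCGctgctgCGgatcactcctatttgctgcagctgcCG
Zfp523: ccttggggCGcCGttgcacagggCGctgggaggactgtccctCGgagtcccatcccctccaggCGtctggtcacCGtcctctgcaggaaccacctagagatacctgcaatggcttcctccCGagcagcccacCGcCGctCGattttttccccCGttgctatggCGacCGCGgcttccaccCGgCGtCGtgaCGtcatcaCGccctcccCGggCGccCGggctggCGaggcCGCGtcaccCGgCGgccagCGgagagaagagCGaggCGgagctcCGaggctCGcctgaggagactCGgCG
Zfp106: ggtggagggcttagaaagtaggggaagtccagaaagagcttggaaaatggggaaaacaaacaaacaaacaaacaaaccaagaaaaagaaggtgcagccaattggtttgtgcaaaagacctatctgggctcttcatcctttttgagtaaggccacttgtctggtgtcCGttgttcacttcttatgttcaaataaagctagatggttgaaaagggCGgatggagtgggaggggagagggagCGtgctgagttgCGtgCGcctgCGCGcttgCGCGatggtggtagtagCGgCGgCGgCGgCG
Zfp518a: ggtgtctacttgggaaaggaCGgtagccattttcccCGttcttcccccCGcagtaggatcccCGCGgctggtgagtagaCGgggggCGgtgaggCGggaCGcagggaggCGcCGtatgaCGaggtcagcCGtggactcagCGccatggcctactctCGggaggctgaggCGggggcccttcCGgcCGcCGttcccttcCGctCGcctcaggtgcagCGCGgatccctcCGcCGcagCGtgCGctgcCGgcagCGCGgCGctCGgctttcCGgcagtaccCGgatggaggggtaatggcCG

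Promoters held 4 to 59 CG dinucleotides in the higher group and 10 to 51 in the lower group. The Zfp800 and Zfp106 promoters, from RNAs called higher and lower, each held 14 CG dinucleotides, and the Zfp523 and Zfp518a promoters held 34 and 35. The median was 17 over all 134 Zfp promoters, 21 for 14 promoters of the higher group, 27.5 for 12 of the lower group and 16 for 54 of the RNAs not called. Over other pcRNAs called higher, called lower and not called the medians were 22, 24 and 23. Group by group, the Zfp median was thus below that of others for RNAs called higher and not called, and above it for those called lower. The median over all 134 Zfp promoters was below each of the 3, as was their median GC content of 58.2% against 62.7% to 63.3%. The 134 include RNAs whose pairs were not compared, whereas the other pcRNAs here do not. At least 10 CG dinucleotides, which read the same on both strands, were present in 82.8% of the Zfp promoters, in 81.0% to 89.1% of those of other pcRNAs that were compared, and in 43.9% of all 27025 promoters of the table. Among RNAs not called the share was 74.1% for Zfp and 86.3% for other pcRNAs. It was 92.9% of the 14 Zfp promoters and 81.0% of others called higher, and 100% of the 12 Zfp promoters and 89.1% of others called lower.

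The Zfp genes were then grouped by role, with counts to be read against the 13.6% called higher and 14.9% called lower over all pcRNAs. Of the 10 genes of pluripotency and imprint control 8 were listed and 6 compared, too few for 0 calls to differ from that background. Zfp42 had 130 pairs in the Input and 98 in the H3K27me3-RADIP, a log2 ratio of -0.44 (-0.83 to -0.05). Zfp57 and Zfp445, which keep methylation at imprinted loci, had 29 and 23 pairs and 26 and 21 pairs in the same order. Zfp143, a factor at the anchors of promoter loops, had 25 and 33, and Zfp217, a corepressor component, had 31 and 38. Zfp281, a partner of Nanog, was listed in the Input only with 9 pairs and Zfp706 in the H3K27me3-RADIP only with 8. The median log2 ratio of the 6 was -0.20.

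The next list held genes that silence retroelements or the placental Igf2 promoter. Of 5 genes 3 were listed, and both that could be compared were called lower, against 14.9% of all pcRNAs. Zfp568, the repressor of that Igf2 promoter, had 236 and 168 pairs (log2 ratio -0.52, -0.82 to -0.23). Zfp819, which acts on transposable elements, had 39 and 14 (-1.51, -2.51 to -0.60). Zfp809, which silences retroviruses through their primer binding site, was in the Input only with 10 pairs. With 3 genes this list is too short to stand for KRAB genes in general.

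Zfp genes of development and the nervous system had no common direction. Of 14 on the list 11 were listed and 8 compared, 2 were called higher (Zfp536 and Zfp618) and none lower, with a median log2 ratio of 0.11, against 13.6% and 14.9% called over all pcRNAs. Zfp423, Zfp407 and Zfp827 (686 and 757 pairs) were not called, and Zfp521, which promotes the neural conversion of embryonic stem cells, was level at 163 and 162. Zfp609, a partner of the cohesin loader in neural progenitors, went the other way with 463 and 360 pairs (-0.40, -0.60 to -0.19). The list's pairs summed to 5318 in the Input and 6354 in the H3K27me3-RADIP, and Zfp423 supplied most of that difference.

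The genes whose products bind RNA or act in splicing and translation were mixed. Of 12 on the list 8 were listed and 7 compared, with 2 called higher and 2 lower, which is above the background shares but from 7 RNAs. The higher ones were Zfp346, which binds double-stranded RNA, with 42 and 72 pairs, and Zfp385c with 21 and 38, whose interval of 0.02 to 1.67 only just cleared 0. The lower ones were Zfp106 and Zfp326, a link between transcription and splicing, with 45 and 22 pairs. Zfp638, a silencer of unintegrated viral DNA, had 413 and 337 pairs, and Zfp622, a ribosome assembly factor, 37 and 43.

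RNAs of the corepressor machinery that KRAB proteins use were all listed, and 3 of the 10 were called, near the background. Trim28 had 32 pairs in the Input and 28 in the H3K27me3-RADIP, and Setdb1 had 24 and 21. Cbx5 (HP1 alpha) was called higher with 57 and 114 pairs, and Smarcad1 (238 and 135) and the deacetylase gene Hdac2 (28 and 8) were called lower. The other zinc finger families moved little as groups, with median log2 ratios of -0.01 for 17 Zbtb RNAs, -0.15 for 4 Zscan RNAs and -0.21 for 2 Zkscan RNAs compared.

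The distance between RNA tag and DNA tag on the same chromosome (cis) showed how far from their genes the RNAs were found. The median was 55.0 kb for Zfp pairs in the Input and 85.5 kb in the H3K27me3-RADIP, against 44.2 and 68.6 kb for other pcRNAs. The share over 100 kb, called long-range, was 40.5% (39.7 to 41.2) of the Zfp cis pairs in the Input and 47.4% (46.7 to 48.1) in the H3K27me3-RADIP, a difference of 6.92 points (5.90 to 7.95). Other pcRNAs went from 36.3% to 43.6%, by 7.30 points (7.18 to 7.42), so by this share Zfp RNAs and other pcRNAs shifted outward by a similar amount. Other measures differed in which set shifted more. Pairs over 1 Mb went from 3.44% to 4.31% of Zfp cis pairs and from 4.50% to 7.08% for other pcRNAs. Per RNA, the median distance was longer in the H3K27me3-RADIP for 58 of 94 Zfp RNAs (61.7%) and for 69.7% of 6822 other pcRNAs, and the median ratio of the 2 distances was 1.17 and 1.34. By these values the Zfp shift was the smaller one, whereas with RNAs weighted equally the long-range share went from 6.09% to 9.59% for Zfp RNAs and from 8.62% to 11.2% for other pcRNAs, the larger step being that of Zfp RNAs.

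The Zfp share exceeded that of other pcRNAs by 4.13 points in the Input and 3.76 in the H3K27me3-RADIP. The 5 RNAs with the most pairs supplied 74.7% of the long-range Zfp pairs in the Input and 73.6% in the H3K27me3-RADIP. Without them the Zfp share was 21.1% and 27.6%, which is 15.3 and 15.98 points below other pcRNAs. The other pcRNAs kept their own most abundant RNAs, so the value shows how much the 5 carried and does not compare like sets. With each RNA of at least 10 cis pairs weighted equally the Zfp mean was also the lower one, 6.09% against 8.62% in the Input and 9.59% against 11.2% in the H3K27me3-RADIP. Weighted equally and at the same gene lengths it was the higher one, 6.02% against 5.37% and 9.50% against 7.96%.

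Long-range share followed the number of pairs an RNA had, for Zfp RNAs and others alike. Among RNAs with 1000 or more cis pairs, the mean share in the Input was 56.6% for 5 Zfp RNAs and 58.2% for 192 others, and in the H3K27me3-RADIP 60.8% for 6 and 62.8% for 224. Among RNAs with 50 to 199, the means were 6.41% and 7.43% in the Input and 11.8% for both sets in the H3K27me3-RADIP. The part of the listing limit in this pattern was not tested. Within a range of pair numbers Zfp RNAs thus stood within a few points of the other pcRNAs.

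**Figure D2:**
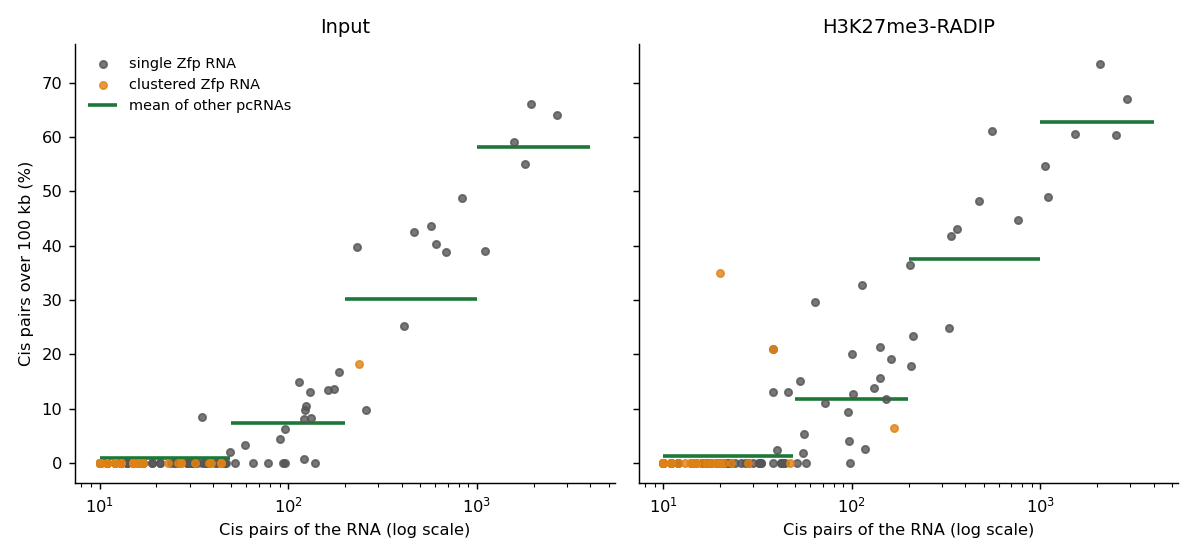
Share of cis pairs over 100 kb for each Zfp RNA (y axis, percent) against its cis pairs in that library (x axis, log scale), for the Input and the H3K27me3-RADIP, with horizontal green lines for the mean of other pcRNAs in each range of pair numbers. The shares climb with pair number to above 38% for every Zfp RNA with 1000 or more pairs. Clustered Zfp RNAs lie at the left, mostly at 0, with Zfp568 (18.2% in the Input), Zfp444 (21.1%) and Zfp398 (35.0%, both in the H3K27me3-RADIP) as the highest. The Zfp444 and Zfp398 values rest on 8 and 7 long-range pairs.

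Long-range shares were compared RNA by RNA for the 30 Zfp RNAs that had 50 or more cis pairs in each list. Of these, 25 had a larger long-range share in the H3K27me3-RADIP, 4 a smaller one and 1 had none in either. The intervals of the 2 lists were apart for 10 of the larger and 2 of the smaller. Of 3209 other pcRNAs with as many cis pairs, 70.0% had a larger share and 20.6% a smaller one, with intervals apart in 34.0% and 2.65%, so the 33.3% of Zfp RNAs apart on the larger side was near that background. The largest gain was that of Zfp664, which had no long-range pair among 65 in the Input and 32.7% (24.8 to 41.8) of 113 in the H3K27me3-RADIP. Zfp148, which binds GC-rich promoters, went from 43.7% to 61.1%, and Zfp638 from 25.2% to 41.8%. Zfp618 went from 3.39% to 21.3%, with 7 and 9 pairs in 2 bins at Col27a1 that had none in the Input.

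The RNAs that went the other way were Zfp42 and Zfp568. Zfp42 had 13.1% (8.33 to 19.9) of 130 cis pairs over 100 kb in the Input and none of 98 in the H3K27me3-RADIP. The interval of the latter reaches 3.77% but covers listed pairs alone, and no bin was listed with fewer than 7 pairs. In the Input, the Zfp42 pairs over 100 kb lay in adjacent bins, with 13 and 4 of them. Zfp568 went from 18.2% (13.8 to 23.6) to 6.55% (3.70 to 11.3). Zfp280d and Zfp277 also had smaller shares, though their intervals overlapped. Zfp207 had no long-range pair in either list.

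Pairs over 1 Mb came from very few genes. In the Input 5 Zfp RNAs gave 607 such pairs, and in the H3K27me3-RADIP 8 gave 795. Zfp407 supplied 283 and 435 of them over 46 bins. Pairs over 1 Mb were found in 15 of these bins in the H3K27me3-RADIP only and in 6 in the Input only, and nearer pairs of the same bins are not counted. Among these bins were 4 at Zfp236, with 8 or 9 pairs each in the Input and none in the H3K27me3-RADIP, and 5 at Zfp516, with 0 to 16 and 9 to 24 pairs. Both genes lie on chromosome 18, at median distances of 1355 to 1897 kb over the 9 bins. Zfp462 supplied 200 and 209 pairs over 32 bins. Only 10 of them had pairs over 1 Mb in both lists, among them chr4:53850001-53875000 at Tmem38b with 17 and 21 pairs. Zfp423 had 47 and 114, including 10 pairs in the H3K27me3-RADIP and none in the Input at chr8:84775001-84800000 within Nfix, 3088 kb away. Zfp704 went against this direction with 69 pairs in the Input and 9 in the H3K27me3-RADIP, although its share over 100 kb was 64.1% and 67.1%.

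Gene length differed between the sets and was set beside distance for that reason. The median annotated length was 17.3 kb for clustered Zfp genes, 28.7 kb for single Zfp genes and 38.9 kb for other pcRNA genes. With other pcRNAs reweighted to the gene lengths behind the Zfp pairs, the Zfp long-range share was above theirs by 6.87 points in the Input and 5.32 in the H3K27me3-RADIP. In genes of 100 to 200 kb, 13 single Zfp RNAs had 49.97% (48.9 to 51.1) of cis pairs over 100 kb in the Input, against 36.7% for 1259 other pcRNAs. In genes of 25 to 50 kb the 31 single Zfp RNAs of the Input had none among 726, against 9.13% for other pcRNAs. In the H3K27me3-RADIP these values were 55.3% against 44.9% and 11.1% against 15.3%. With RNAs weighted equally, single Zfp RNAs of the longer class were also above others of that length, at 27.6% against 17.3% in the Input and 34.2% against 21.98% in the H3K27me3-RADIP.

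**Figure D3:**
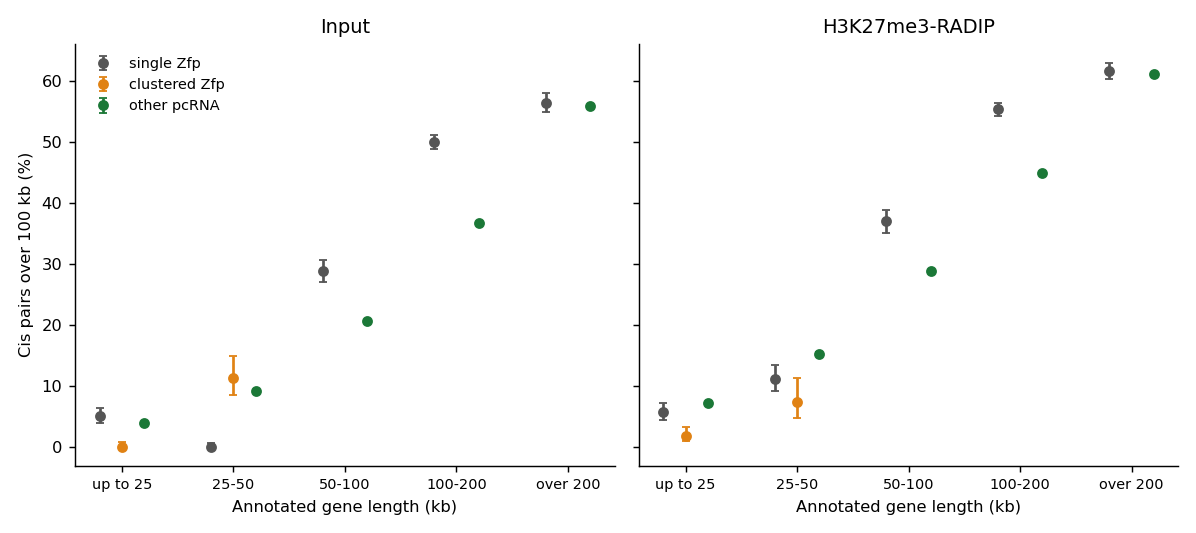
Share of cis pairs over 100 kb (y axis, percent, with 95% Wilson intervals for counting error) by annotated gene length (x axis, 5 classes in kb) for single Zfp, clustered Zfp and other pcRNAs in each library. The share climbs with gene length in the other pcRNAs in both libraries, single Zfp RNAs lie above them at 100 to 200 kb, and clustered Zfp RNAs exist only below 50 kb.

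Where on its own gene an RNA stayed was described by the DNA tags inside the annotated gene. For Zfp RNAs 49.6% (48.8 to 50.3) of cis pairs in the Input and 43.3% (42.6 to 44.0) in the H3K27me3-RADIP had the DNA tag inside the RNA's own gene. Other pcRNAs had 57.0% and 48.7%. With RNAs weighted equally the values were closer, at 69.1% against 72.4% and 64.8% against 66.9%. In genes of 25 to 50 kb the Zfp share of pairs was the higher one, 70.7% against 60.5% in the Input and 61.2% against 50.6% in the H3K27me3-RADIP, and below 25 kb it was the higher one in the H3K27me3-RADIP alone, 52.7% against 50.4%. Of the Zfp DNA tags outside, 57.7% in the Input and 58.9% in the H3K27me3-RADIP lay past the gene's end rather than before its start, near the 55.7% and 56.0% of other pcRNAs. Zfp407 had the most one-sided pattern of the 5 large RNAs, with 83.8% and 82.3% past its end.

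Most Zfp RNA tags came from introns, less often than for other pcRNAs. By the region label of each RNA tag, 83.3% (82.8 to 83.9) of the Zfp pairs in the Input and 84.9% (84.3 to 85.4) in the H3K27me3-RADIP came from introns, against 89.0% and 89.7% for other pcRNAs. Coding exons supplied 8.22% and 7.34% of the Zfp pairs, against 4.26% and 4.05%. With each RNA of at least 10 pairs weighted equally, the intron share was 67.4% and 65.3% for Zfp RNAs and 80.4% for other pcRNAs in both lists. In clustered Zfp RNAs the intron share was 59.7% and 59.4% of pairs, with 18.9% and 16.6% from coding exons. C2H2 genes are known to hold most of their fingers in 1 long coding exon.

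Clustered and single Zfp genes were then compared. A Zfp RNA was counted as clustered where the span of its RNA tags lay within 200 kb of that of another, which put 55 names in 20 clusters on 9 chromosomes and left 115 single. Of the 20 clusters 13 were pairs, and 8 clusters with 26 members were on chromosome 7. The widest gap inside a cluster was 176 kb, between Zfp467 and Zfp775, and the narrowest outside was 218 kb, between Zfp236 and Zfp516.

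Clustered Zfp RNAs had fewer pairs and shorter distances. They gave 896 pairs in the Input and 734 in the H3K27me3-RADIP, with a median of 15 pairs per name over both lists, against 46 for single Zfp RNAs. Per kilobase of gene the medians were closer, at 0.795 and 0.656 pairs for clustered and 1.04 and 0.963 for single Zfp RNAs. The median distance was 5.46 kb and 5.28 kb for clustered RNAs, and 62.7 kb and 95.7 kb for single ones over all pairs. Over RNAs, the median of their own medians was 3.47 and 4.37 kb for clustered and 7.20 and 8.85 kb for single RNAs, a much smaller gap. Inside the own gene lay 61.4% and 65.4% of the clustered cis pairs, against 48.9% and 42.4% of the single ones. With RNAs weighted equally these shares were 68.9% and 70.2% for clustered and 69.1% and 63.1% for single RNAs, so the gap was absent in the Input and smaller in the H3K27me3-RADIP.

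Their long-range share was 4.80% (3.58 to 6.40) in the Input and 3.54% (2.43 to 5.14) in the H3K27me3-RADIP, against 42.4% and 49.2% for single Zfp RNAs. The differences were -37.6 points (-39.2 to -36.0) and -45.7 points (-47.2 to -44.1). In the Input all 43 long-range clustered pairs were from Zfp568, and without this RNA the clustered share was 0% in the Input and 2.65% in the H3K27me3-RADIP. Among genes of at most 50 kb, where both kinds of gene occur, the difference was 1.59 points (-0.01 to 3.18) in the Input and -4.47 points (-6.28 to -2.66) in the H3K27me3-RADIP. The clustered side of the Input value again rests on Zfp568 alone, so its positive sign comes from 1 RNA. Among genes of like length the difference was far smaller than over all genes.

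Calls of the 2 kinds of gene are given side by side, and their difference was not tested. Of 24 clustered Zfp RNAs compared, 1 was called higher (Zfp444, 16 and 38 pairs) and 4 lower (Zfp568, Zfp777, Zfp398 and Zfp819), with a median log2 ratio of -0.39. Of 80 single Zfp RNAs, 16 were called higher and 11 lower, with a median of 0.06. Against the 13.6% called higher and 14.9% called lower over all pcRNAs, the clustered shares were 4.17% and 16.7% and the single shares 20.0% and 13.8%. Among clustered names 27.3% were in the Input only and 23.6% in the H3K27me3-RADIP only, among single names 14.8% and 8.70%, and among all pcRNAs 10.5% and 13.5%. An RNA needs 7 pairs in each list, hence 14 in all, to be in both. Of the names with 14 to 50 pairs in all, 20 of 22 clustered (90.9%) and 34 of 38 single Zfp RNAs (89.5%) were in both lists, and 83.7% of other pcRNAs.

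The largest cluster lay at chr7:29817770-30168056 and held Zfp790, Zfp940, Zfp420, Zfp74, Zfp568, Zfp82, Zfp382 and Zfp146. Its 8 RNAs gave 290 pairs in the Input and 211 in the H3K27me3-RADIP, of which Zfp568 gave 236 and 168. Zfp940 had 17 and 9 pairs and Zfp74 had 10 and 15. Zfp420, Zfp790 and Zfp146 were in the Input only, with 10, 9 and 8 pairs, and Zfp82 and Zfp382 in the H3K27me3-RADIP only, with 12 and 7. Apart from Zfp568, each RNA of this cluster was thus listed at 1 bin and with at most 17 pairs in a list.

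**Figure D4:**
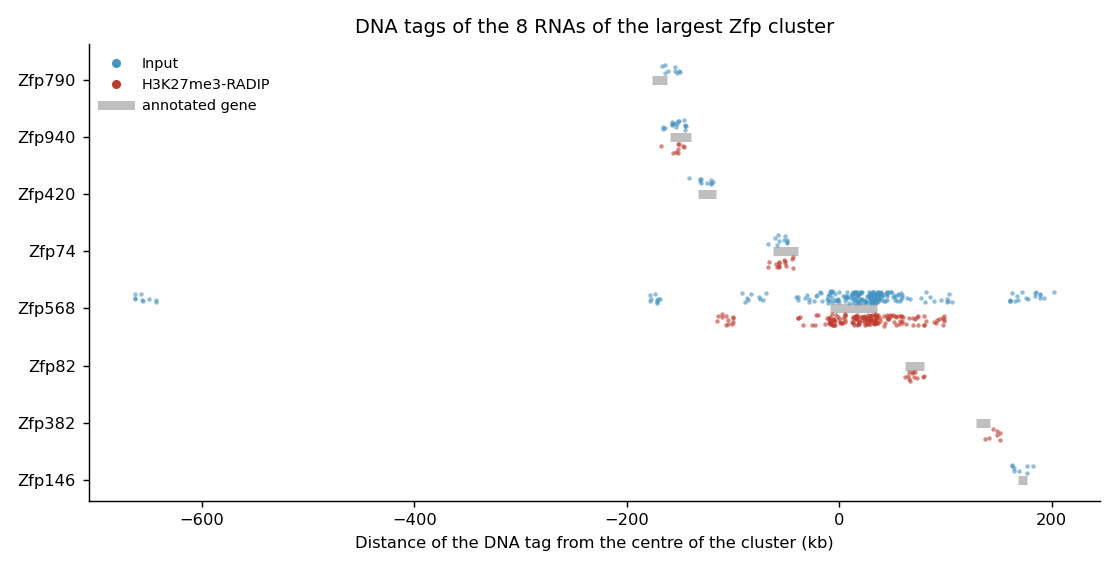
DNA tags of the 8 RNAs of the largest Zfp cluster, 1 row per RNA, against the distance of the DNA tag from the centre of the cluster (x axis, kb). Blue points are Input pairs, red points H3K27me3-RADIP pairs and grey bars the annotated genes, and the points of Zfp568 spread over its neighbours while those of the other 7 RNAs stay near their own gene.

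The next clusters were the 4 genes of chr6:47836044-48086494 and 2 clusters of 4 on chromosomes 9 and 7. In the first, Zfp398 had 44 and 20 pairs, Zfp777 38 and 14, Zfp746 23 and 17 and Zfp282 16 and 11, so all 4 had fewer pairs in the H3K27me3-RADIP and 2 of them were called lower. Of the 20 pairs of Zfp398 in the H3K27me3-RADIP 35.0% were long-range, against none in the Input. These were 7 pairs, the smallest number listed for an RNA and a bin, and the farthest was at 128 kb. On chromosome 9 (chr9:22055426-22298531) Zfp599 had 12 and 8 pairs, Zfp809 and Zfp810 were in the Input only with 10 and 9, and Zfp653 was in the H3K27me3-RADIP only with 15. On chromosome 7 (chr7:27735058-28012938) Zfp626 had 11 and 8 pairs, Zfp850 had 8 and 10, Zfp59 was in the Input only with 10 and Zfp60 in the H3K27me3-RADIP only with 9.

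The DNA tags of clustered RNAs were set against the genes of their neighbours. Of 373 clustered pairs in the Input with the DNA tag outside the RNA's own span, 38 or 10.2% (7.51 to 13.7) had it within the span of another Zfp RNA, and in the H3K27me3-RADIP 28 of 273 or 10.3% (7.19 to 14.4). Those spans covered 13.6% and 11.6% of the sequence within 200 kb of the RNA's own span, so the shares were close to the covered length. Counted by 25-kb bins that hold RNA tags of another Zfp gene, the resolution of the lists, the shares were 34.9% in the Input and 29.7% in the H3K27me3-RADIP. Such bins covered 33.1% and 29.9% of the sequence within 200 kb, so at that reach these shares too were close to the covered length. About 3 in 4 of these tags, 76.4% in the Input and 75.5% in the H3K27me3-RADIP, lay within 25 kb of the RNA's own span. Within 25 kb the share by bins in the Input was 33.0% (27.8 to 38.6), against 37.3% covered. In the H3K27me3-RADIP it was 19.9% (15.0 to 25.9), below the 32.1% covered. The pairs with hits in both lists were Zfp787 on Zfp444 (7 and 11), Zfp12 on Zfp316 (5 and 4), Zfp568 on Zfp82 (3 and 10) and Zfp940 on Zfp790 (3 and 1).

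The listed Zfp RNAs were also set against the annotated family. GENCODE release M21 held 391 protein-coding genes that fit the name rule, of which 168 (43.0%) were listed in either library, against 49.0% of the 21560 other protein-coding genes. Up to 15 kb of gene length the Zfp share was the higher one, 25.8% against 19.0%. It was the lower one at 15 to 25 kb (45.0% against 55.3%), at 25 to 50 kb (52.4% against 73.1%) and above 50 kb (81.4% against 87.1%). Within the family the listed share was lower in larger annotated clusters. It was 66.2% (58.2 to 73.4) of 145 genes that stood alone, 38.6% (28.0 to 50.3) of 70 in clusters of 2 to 3, 36.0% (26.7 to 46.6) of 86 in clusters of 4 to 9 and 15.6% (9.50 to 24.4) of 90 in clusters of 10 or more. Within genes of 15 to 25 kb the shares were 54.8%, 61.9%, 51.9% and 18.8% in the same order, so at that length the clusters of 10 or more were the lowest. Within genes of 25 to 50 kb they were 86.7% (70.3 to 94.7), 40.0% (16.8 to 68.7), 45.0% (25.8 to 65.8) and 18.2% (7.31 to 38.5), where genes alone stood above every cluster size.

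The authors kept uniquely mapped tags, and the unique sequence of each gene was therefore measured as the share of its 25-base windows that occur at 1 place in the genome. In the cluster on chromosome 4 from Zfp989 to Zfp933 the median gene was 9.16% unique, and 0 of its 10 genes were listed. Of the other clusters of 10 or more, 1 of 23 genes was listed on chromosome 13 (Zfp712 to Zfp273, median 72.2% unique), 1 of 18 on chromosome 17 (Zfp677 to Zfp946, 77.5%), 2 of 12 from Zfp871 to Zfp101 (82.9%) and 2 of 12 from Zfp180 to Zfp575 (83.5%). The annotated cluster around Zfp568, 87.3% unique, had 8 of 15 listed. With the genes of at least 50% unique windows alone, the listed shares were 68.3%, 50.9%, 44.3% and 19.2% from genes alone to clusters of 10 or more. The part of unique sequence in which genes were listed was not tested further, and expression was not measured in these files.

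**Figure D5:**
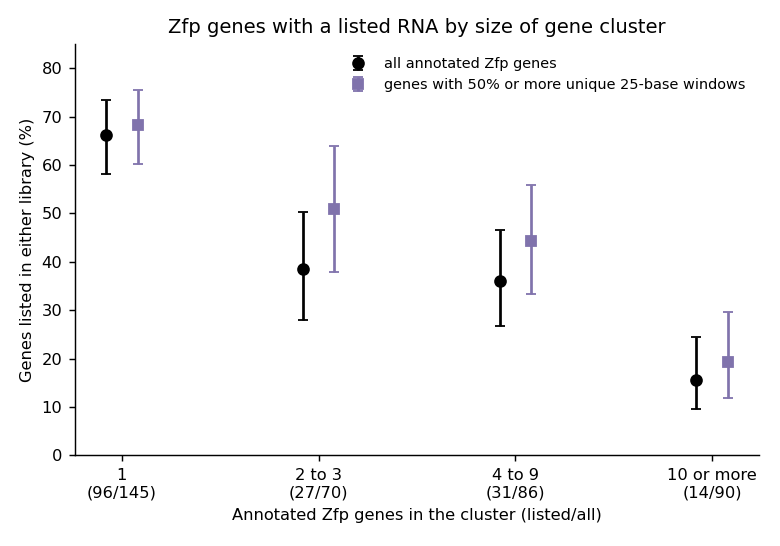
Share of annotated Zfp genes with an RNA listed in either library (y axis, percent, with 95% Wilson intervals) by the number of annotated Zfp genes in the cluster (x axis), for all genes (circles) and for those with at least 50% unique 25-base windows (squares). The share goes from 66.2% for genes alone to 15.6% for clusters of 10 or more, and from 68.3% to 19.2% for the genes with enough unique sequence.

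The proteins differed along with gene position. In the longest open reading frame of each gene's annotated transcripts, the C2H2 letter pattern of a finger occurred a median of 11 times in the 55 clustered genes and 7.5 times in the 112 single genes with such a frame. The core letters of a KRAB domain were found in 24 of the 55 clustered (43.6%) and 17 of the 112 single (15.2%) genes, a pattern that misses some known KRAB proteins such as Zfp568 and Zfp57. Among called RNAs, it was present in 1 of 17 higher and 3 of 15 lower. The 223 annotated Zfp genes that were not listed had a median of 11 fingers and the KRAB letters in 39.5%, against 9 fingers and 24.4% for the 168 that were listed.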

How the data were processed

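RNA–chromatin pairs were measured in 16 mESC libraries, 8 Input and 8 H3K27me3-RADIP, which the authors merged within each group before the significant interactions were called; the study describes fewer biological replicates than libraries. Per the submitters' processing notes the tools were CASAVA 1.8.2, STAR 2.5.0a and BWA 0.7.15-r1140 with the build mm10, and per the methods uniquely mapped pairs were kept. The deposited tables hold 1 row per pair with the coordinates, gene, class and region of the RNA tag and the p-value and q-value of its RNA and bin (the p-value was not used here), as the authors calculated them; the RNA tags carry GENCODE M25 names.

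From these rows pairs were counted per RNA name. Distance was taken between tag centres, and long-range was over 100 kb, as the study defines it. Ratios were scaled by trimmed means of log ratios over pcRNAs, trimming 30% of ratios and 5% of levels, which set the scale of the H3K27me3-RADIP over the Input to 1.02. The calling script was tested on simulated data. RNAs were named by a fixed rule: the 10 with the most pairs, the 6 largest and 6 smallest ratios from 50 pairs, the 3 with the most pairs in each single list, the 4 largest long-range shares in each, the 3 largest clusters and the role lists. Those outside it, such as Zfp655, Zfp664 and called RNAs with fewer pairs, were chosen after their values were seen. Members and lists were chosen with earlier results of these data known.

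The reading frames and gene spans came from GENCODE M21, an older release, and the promoters from RefSeq. Of 170 names 169 matched by gene ID, and 38 members overlap another gene on the same strand, where tags may belong to either. Intervals are Wilson for shares and exact for ratios. Python 3.11.15, pandas 2.3.3 and scipy 1.17.1 were used.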

Additional observations from a re-analysis of the deposited data

Results flagged for a closer look

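Pairs between chromosomes lay outside the comparisons of distance. Among Zfp RNAs they came from Zfp704 alone, with 12 pairs at 11 distinct positions in the H3K27me3-RADIP and 0 in the Input, and all were in the bin chr11:3150001-3175000 (mm10) at Sfi1. That bin took pairs from other chromosomes from many RNAs, with 396 such pairs of 28 RNA names in the H3K27me3-RADIP and 171 of 9 in the Input.

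Names outside the selection rule also gave pairs in 1 list. Zfp939, which the files place in another RNA class, had 11 pairs in the H3K27me3-RADIP and 0 in the Input. Zfp36l1, whose product binds AU-rich mRNA, had 18 in the H3K27me3-RADIP and 0 in the Input.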

How the results depend on the processing

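No paired analysis was possible because the authors merged the 8 libraries of each group, whose numbers the labels share, and for the same reason no library could be left out. In this paragraph values are for the H3K27me3-RADIP unless the Input is named, and differences of long-range shares are in points. With pairs of a q-value of at most 0.01 alone, the Zfp share of pcRNA pairs was 1.38%, 23 RNAs were lower, Zfp minus other pcRNAs was 4.74, clustered minus single -43.8, and landing on another Zfp gene in the Input 7.25%. Leaving out the 5 most abundant RNAs of the Zfp set alone, which by construction lowers its long-range share, the Zfp share was 0.620% (0.684% in the Input), Zfp minus other pcRNAs reversed to -15.98 (-15.3), clustered minus single was -26.4 (-18.2) and the intron share 79.2% (76.96%). With 50 pairs as the minimum 11 RNAs were higher, and with the fold limit alone 26 were higher and 28 lower; scaling by total pairs gave 16 higher and 18 lower. With RNAs weighted equally the H3K27me3-RADIP minus Input was 3.50, Zfp minus other pcRNAs reversed to -1.58 (-2.53 in the Input), and clustered minus single was -9.43 (-7.44). For distances over 25 kb the same 3 were 5.80, 2.63 (3.03) and -54.5 (-49.9). With a gap of 500 kb between cluster members clustered minus single was -42.2 and landing 6.84%, and by 25-kb bins landing was 29.7% (34.9%). Alternatives chosen after seeing the data gave, for genes of at most 50 kb, clustered minus single of -4.47 and, reversed, 1.59 in the Input, where Zfp568 gave all clustered long-range pairs. Without Zfp568 the Input value was -42.4. With gene lengths matched, Zfp minus other pcRNAs was 5.32 (6.87), and with RNAs weighted equally the intron share was 65.3% (67.4%). The other 46 values kept their direction and moved by less than their counting error, or by less than 1.5 times for counts. The cause of these changes was not tested beyond what each alternative leaves out or reweights. The minimum of 7 pairs per bin limits what can be seen of scarce RNAs.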

Other observations

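The DNA of Zfp clusters was also met by RNAs of other genes. At the cluster of Zfp467 and Zfp775 (chr6:48430209-48623139) the members' own RNAs gave 15 pairs in the Input and none in the H3K27me3-RADIP, while RNAs of other genes gave 80 pairs from 5 names in the Input and 177 from 9 names in the H3K27me3-RADIP. These included Igf2bp3, which encodes an mRNA-binding protein, with 29 and 45 pairs, and Sspo with 20 and 40. At the cluster of Zfp251, Zfp7 and Zfp647 (chr15:76852585-76924507) other RNAs outnumbered the members in both lists, with 112 and 105 pairs against 18 and 20, and Rbfox2, a splicing factor gene, gave 61 and 52 of them.

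Other Zfp names outside the selection rule were listed at low numbers. The antisense RNA Zfp335os had 25 pairs in the Input and 26 in the H3K27me3-RADIP, Zfpm2, a cofactor of GATA factors, had 34 and 27, and the pseudogene Zfp862-ps had 13 and 32.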
